A study of Mus musculus with 6 samples.

Results

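Kruppel-like factors (KLFs) are transcription factors that share a C-terminal block of zinc fingers and bind GC-rich and CACCC-type DNA. Their N-terminal parts differ, and the family is usually sorted into an activator-type branch (Klf2, Klf4, Klf6 and Klf7 among those described here), a branch that recruits the CtBP corepressors (Klf3 and Klf12) and a branch that recruits Sin3 corepressors (Klf10 and Klf13). In lymphocytes the family is best known for Klf2, which keeps resting cells quiescent and supports the genes for recirculation through blood and lymphoid organs. The members were the 8 genes of this list, found by exact symbol among 27763 gene rows of the deposited table. The table holds 16 Klf genes in all.

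The RNA came from spleen natural killer (NK) cells of 6-week-old wild-type C57BL/6 mice, in 2 groups named cNK and DN NK with 3 libraries each. All libraries share strain, genotype, age and organ, and no treatment is named. The labels spell out neither group name nor the surface markers used to sort, and they name no mouse behind a library. The p-values therefore speak only of the spread among these libraries, which may be technical. Comparing them shows how Klf transcripts differ between the 2 kinds of NK cell. The series title speaks of an immature NK subset of the spleen, and the labels do not tie either group name to it.

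Estimated counts per library summed to between 79798234 and 89526647. All 8 NK-defining transcripts on the list used here (such as Ncr1, Klrb1c and Eomes) were well above the filter in both groups, and all 8 were lower in DN NK, with a summed level of 1260 to 1440 FPKM against 2850 to 3110 FPKM in cNK. Over all tested rows 30.9% were called lower. FPKM is a fragment density corrected for how long the transcript is and how deeply the library was sequenced, so that levels may be compared between genes. Of 8 B cell markers the summed level was 38.9 to 51.5 FPKM in DN NK and 2.57 to 3.04 FPKM in cNK, and none of the 8 was at 0 throughout either group. Of the 11 T cell markers it was 647 to 683 against 497 to 514 FPKM, of 4 listed plasma cell markers 39.2 to 45.9 against 21.9 to 23.5 FPKM, and of 7 listed ILC2 and ILC3 markers 22.5 to 24.8 against 14.2 to 16.4 FPKM. Most of the T cell sum came from Trbc1 and Trbc2, of the plasma cell sum from Xbp1, and of the ILC sum from Gata3. Some less abundant T cell markers differed more, with Cd3d at 38.5 FPKM in DN NK and 4.54 FPKM in cNK. Cd4 was at 3.51 and 0.016 FPKM and passed the filter through DN NK alone. All 6 tested T cell markers were called higher in DN NK, as were 30.8% of all tested rows. These markers of other lymphocytes move with every difference between the groups given here, and their part in the Klf results was not tested. In such bulk samples fewer cells of a type and less RNA per cell cannot be told apart.

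The upstream sequences of the 2 activator-type members that moved farthest apart, Klf2 and Klf4, are shown because the genes moved in opposite directions. Both windows hold more matches to GGGCGG, which KLF and Sp proteins can bind, than the mean of 0.77 per RefSeq window. For CACCC neither is clearly above the mean of 0.97. The sequences are given 5′ to 3′ from RefSeq (build GRCm38.p6), ending before the annotated gene start. Klf2 is read from the plus strand at chr8:72318812-72319032, and Klf4 from the minus strand at chr4:55532476-55532725. Capitals mark the GC box GGGCGG and the CACCC motif on either strand and the MEF2 consensus.
Klf2: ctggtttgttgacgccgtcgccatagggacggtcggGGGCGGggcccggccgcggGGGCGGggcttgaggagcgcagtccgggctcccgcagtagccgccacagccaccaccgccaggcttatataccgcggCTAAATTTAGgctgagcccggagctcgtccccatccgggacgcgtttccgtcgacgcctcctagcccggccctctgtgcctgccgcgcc
Klf4: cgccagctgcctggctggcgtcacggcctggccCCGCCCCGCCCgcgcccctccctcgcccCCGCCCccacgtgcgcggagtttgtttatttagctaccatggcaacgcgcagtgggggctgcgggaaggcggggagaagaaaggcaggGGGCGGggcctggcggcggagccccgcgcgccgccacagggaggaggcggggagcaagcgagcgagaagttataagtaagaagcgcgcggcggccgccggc

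The Klf2 sequence holds 2 GC boxes, no CACCC motif and 1 match to the MEF2 consensus, which begins 89 bases before the end of the printed window. The full Klf2 window of 300 bases holds 1 CACCC motif, which the shorter printed stretch does not contain. The Klf4 sequence holds 4 GC boxes, 2 of which share bases at their junction, and no match to the other motifs. Over the 32851 RefSeq windows of 300 bases around gene starts, 35.7% held GGGCGG, 57.5% held CACCC and 3.2% matched the MEF2 consensus on either strand. Windows matched 7 of the 8 members, all but Klf10, and GGGCGG was present in all of these windows except that of Klf12. Klf3, Klf4 and Klf13 had 6, 4 and 3 matches, and Klf7 and Klf6 had 1 each. The GC content of the matched windows was 58.3 to 76.7% for 6 members and 45.7% for Klf12, beside a median of 52.7% over all windows. The forkhead motif GTAAACA, which 3.6% of all windows held, and the serum response factor CArG box, held by 1.6%, were not found in any of the 7. A match is a description of the letters and not a measured binding site.

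Of the 8 members, 5 were lower in DN NK (Klf2, Klf3, Klf6, Klf12 and Klf13), 1 was higher (Klf4), and Klf7 and Klf10 did not pass the test. All 8 passed the filter on low values, and each did so in both groups or, for Klf12, through cNK and 2 DN NK libraries. Estimated counts were tested with edgeR (quasi-likelihood, Benjamini-Hochberg adjustment over 11690 rows, threshold 0.05). It called 61.7% of all tested rows, 30.8% as higher and 30.9% as lower in DN NK, so that 6 of 8 members called is near that background. Klf2, Klf4 and Klf12 changed 2-fold or more, as did 12.6% of all tested rows. The median log2 fold change of DN NK over cNK was -0.28 over the 8 members and -0.02 over all tested rows. In absolute size, the changes of Klf12, Klf2 and Klf4 exceeded those of 97.1%, 93.5% and 90.4% of tested rows, and those of the other 5 members exceeded 15.6 to 52.7%. FPKM values of the 2 groups did not overlap for 7 of 8 members, all but Klf7, as they did not for 70.3% of all tested rows. Summed FPKM over all rows was 323791 to 332451 in the DN NK libraries and 348463 to 352688 in the cNK libraries. Log2 fold changes from FPKM lay slightly below those of edgeR, for Klf10 at -0.21 (limma on log2(FPKM + 0.1)) against -0.15. Whether groups that nearly touch overlap may thus depend on the scale.

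**Figure D1:**
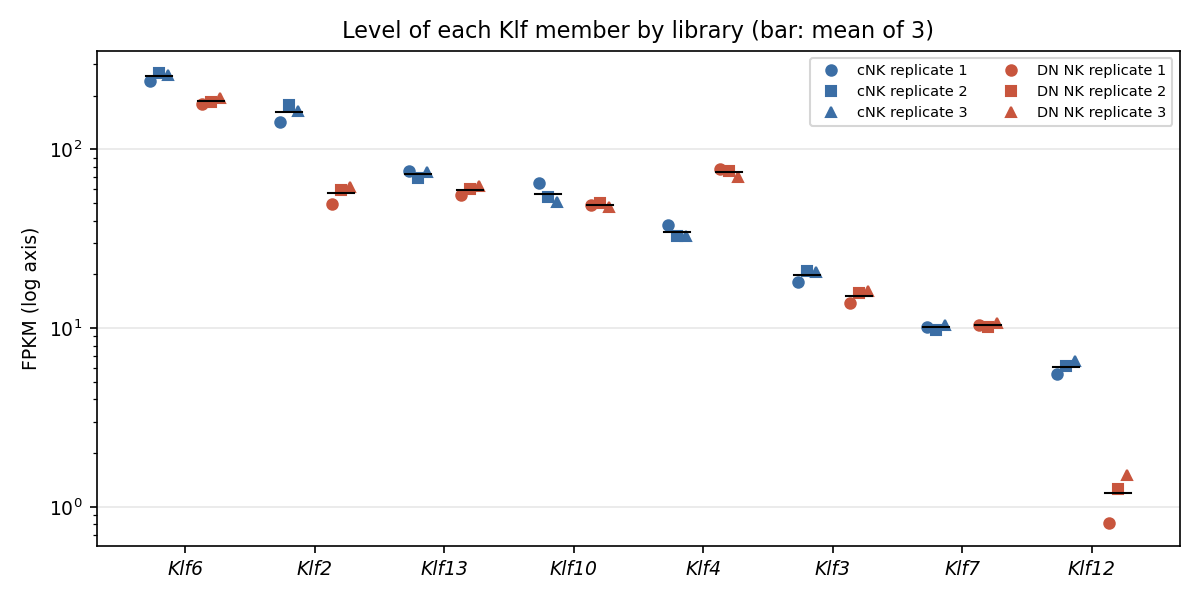
FPKM of each Klf member (log axis) in the 3 cNK and 3 DN NK libraries, 1 point per library and a bar at each group mean, ordered by the cNK mean. Klf2 and Klf12 lie far lower in DN NK, Klf4 lies higher, and the points of Klf7 overlap between the groups.

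Klf2 lies on chromosome 8 from 72319033 to 72321656 (plus strand, GRCm38, ENSMUSG00000055148), a compact gene of 3 exons with 1 annotated transcript. Its level was 142, 176 and 164 FPKM in cNK replicates 1, 2 and 3 and 49.8, 59.2 and 61.9 FPKM in DN NK replicates 1, 2 and 3. Every DN NK library was thus far below every cNK library, and cNK replicate 1 was the lowest of its group. Klf2 fell 2.71-fold in DN NK (log2 fold change -1.44, SE 0.10, adjusted p = 1.48e-05), with a 95% interval of -1.66 to -1.21. The means were 161 ± 17.3 and 57.0 ± 6.39 FPKM (SD, n = 3 each, edgeR test).

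Klf4, a factor known from myeloid differentiation, from restraint of lymphocyte division and from reprogramming to pluripotency, went the other way. It lies on chromosome 4, minus strand, between 55527143 and 55532466 (ENSMUSG00000003032). Klf4 measured 37.8, 32.7 and 32.8 FPKM in the cNK libraries and 78.0, 75.4 and 70.4 FPKM in the DN NK libraries. The lowest DN NK library stood well above the highest cNK library. Klf4 was 2.26-fold higher in DN NK by edgeR, or 1.17 on the log2 scale with an SE of 0.08 and a 95% interval of 0.99 to 1.36 (adjusted p = 7.70e-06). The monocyte and macrophage markers, from cells in which Klf4 is well known, had summed levels that overlapped between the groups. They were 5.87 to 6.70 FPKM in DN NK and 6.27 to 7.05 FPKM in cNK, nearly all of it Cd68, and Csf1r was at 0.169 and 0.170 FPKM. Of the 8 listed endothelial and stromal markers, Pecam1, which leukocytes also express, made up most of the summed level of 14.6 to 15.6 against 10.7 to 11.8 FPKM. Of these, Kdr, Vwf, Tek and Cldn5 averaged between 0 and 0.0286 FPKM in either group. In every cNK library Vwf, Tek and Cldn5 were at 0. Pdgfrb averaged 0.00469 FPKM in cNK and 0.0584 FPKM in DN NK. When edgeR was run on all rows, 3 of the 8 (Pecam1, Vwf and Pdgfrb) were called higher and 0 lower, beside 31.3% of all rows called. The part of these genes in the Klf4 difference was not tested.

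Because Klf2 and Klf4 moved oppositely, their ratio differed more than either gene. The Klf4 to Klf2 ratio of FPKM was 0.266, 0.185 and 0.200 in the cNK libraries and 1.57, 1.27 and 1.14 in the DN NK libraries. Klf2 was the more abundant of the 2 in every cNK library and Klf4 in every DN NK library. The mean ratio was 6.11 times higher in DN NK. It was formed after the opposite changes were seen and is a description with no test.

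Klf6, known as an early responder to injury and stress, was the most abundant member in both groups. It lies on chromosome 13 from 5861482 to 5870394 (plus strand, ENSMUSG00000000078). Klf6 stood at 240.0, 267 and 261 FPKM in cNK and at 179, 184 and 195 FPKM in DN NK, with no overlap. Klf6 fell 1.32-fold (log2 fold change -0.40, SE 0.05, adjusted p = 0.000216). Its percentile among tested rows hardly differed, at 98.2 in cNK and 97.8 in DN NK.

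Klf7 (chromosome 1, 64029447 to 64122282, minus strand), best known from neurons, had the steadiest values of the members. It was at 10.2, 9.83 and 10.4 FPKM in cNK and at 10.4, 10.2 and 10.7 FPKM in DN NK. The groups overlapped, and the log2 fold change of 0.10 (SE 0.05) did not pass (adjusted p = 0.0861). The 95% interval ran from -0.0043 to 0.21.

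Among the CtBP-binding members, Klf12 had the largest change of the 8. This repressor gene, first known for silencing an AP-2 gene, lies on the minus strand of chromosome 14, and its row spans 99874486 to 100149764 (ENSMUSG00000072294). Klf12 was at 5.53, 6.14 and 6.54 FPKM in cNK and at 0.811, 1.26 and 1.52 FPKM in DN NK. The highest DN NK library stayed below the lowest cNK library by a wide margin, and DN NK replicate 1 was the lowest of all. Klf12 fell 4.86-fold (log2 fold change -2.28, SE 0.21, adjusted p = 3.37e-05), with a 95% interval of -2.76 to -1.81. Klf12 was also the least deeply covered member, with about 283, 303 and 314 read pairs in cNK and 38, 59 and 70 in DN NK. The row lists 1 transcript of 1856 nt, whereas GENCODE M21 has 6 for the gene and extends it to 100284679, so transcripts from the farther starts are not separately counted here.

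Klf3, a repressor of many of the genes that activating family members switch on, changed in the same direction by far less. It spans 64803388 to 64832901 on the plus strand of chromosome 5 (ENSMUSG00000029178). Klf3 levels were 18.0, 20.9 and 20.5 FPKM in cNK and 13.8, 15.7 and 16.2 FPKM in DN NK, with no overlap. Klf3 fell 1.25-fold (log2 fold change -0.32, SE 0.07, adjusted p = 0.00342). The row of C230096K16Rik overlaps the Klf3 start on the same strand at 3.91 and 3.87 FPKM in cNK and DN NK, so a small share of reads near that start could be assigned to either. Klf8, the remaining gene of this branch, lay below the filter at 0.782 ± 0.0892 FPKM in cNK and 0.396 ± 0.0117 FPKM in DN NK (SD, n = 3 each). When edgeR was run on all rows, which called 31.3% of them, Klf8 had a log2 fold change of -0.98 (adjusted p = 0.000362). Klf3 and Klf12 were thus called lower in the main test, and Klf8 only in the run on all rows. In the main test 30.9% of all tested rows were called lower. The summed level of the 3 CtBP-binding Klf genes was 26.7 ± 2.03 FPKM in cNK and 16.8 ± 1.63 FPKM in DN NK (SD, n = 3).

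Of the Sin3-binding members, Klf13 is known as an activator of the chemokine gene Ccl5 in T cells. Its place is chromosome 7, minus strand, between 63886351 and 63938915 (ENSMUSG00000052040). Klf13 stood at 75.4, 69.0 and 75.0 FPKM in cNK and at 55.4, 59.9 and 62.8 FPKM in DN NK. The groups did not overlap, and Klf13 fell 1.18-fold (log2 fold change -0.24, SE 0.06, adjusted p = 0.00747).

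Klf10, named for its early induction by transforming growth factor beta (TGF-beta), lies on chromosome 15, minus strand, between 38294413 and 38300707 (ENSMUSG00000037465). Klf10 was at 64.6, 54.2 and 50.8 FPKM in cNK and at 48.6, 50.3 and 47.4 FPKM in DN NK. The groups did not overlap but nearly touched, and the cNK libraries varied most among themselves, with a coefficient of variation of 12.7% against 2.95% in DN NK. Its log2 fold change of -0.15 (SE 0.10) did not pass (adjusted p = 0.200), and the 95% interval ran from -0.38 to 0.07. Without cNK replicate 1, the highest library, the log2 fold change was -0.04 (adjusted p = 0.598). The Klf10 row lists 1 of 6 GENCODE transcripts. Of 9 genes of TGF-beta signalling and its early response, 4 were higher (such as Tgfb1, the ligand, by 0.57 on the log2 scale, and the receptor gene Tgfbr1 by 0.48), 1 was lower (Smad3, at -0.18 on the same scale) and the other 4 missed the threshold. Without cNK replicate 3, 2 were lower. Over all tested rows 30.8% were called higher and 30.9% lower.

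Klf9, Klf11 and Klf16, further genes of this branch, were tested and moved in both directions. Klf11, the closest relative of Klf10, fell 1.47-fold, from 11.2 ± 0.847 to 7.30 ± 0.342 FPKM (SD, n = 3 each, adjusted p = 0.000109 by edgeR). Klf9, known as a glucocorticoid and circadian target, rose 1.33-fold, from 10.1 ± 1.02 to 13.0 ± 0.448 FPKM (adjusted p = 0.00262 by edgeR, n = 3 each). Klf16 rose 1.14-fold (adjusted p = 0.0130), a call that was lost with upper quartile factors (adjusted p = 0.110), without a filter (adjusted p = 0.130) and without DN NK replicate 1 or 2 (adjusted p = 0.0517 and 0.0626). The 5 tested genes of the branch therefore gave 2 higher, 2 lower and 1 not past the test, beside 61.7% of all tested rows called.

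**Figure D2:**
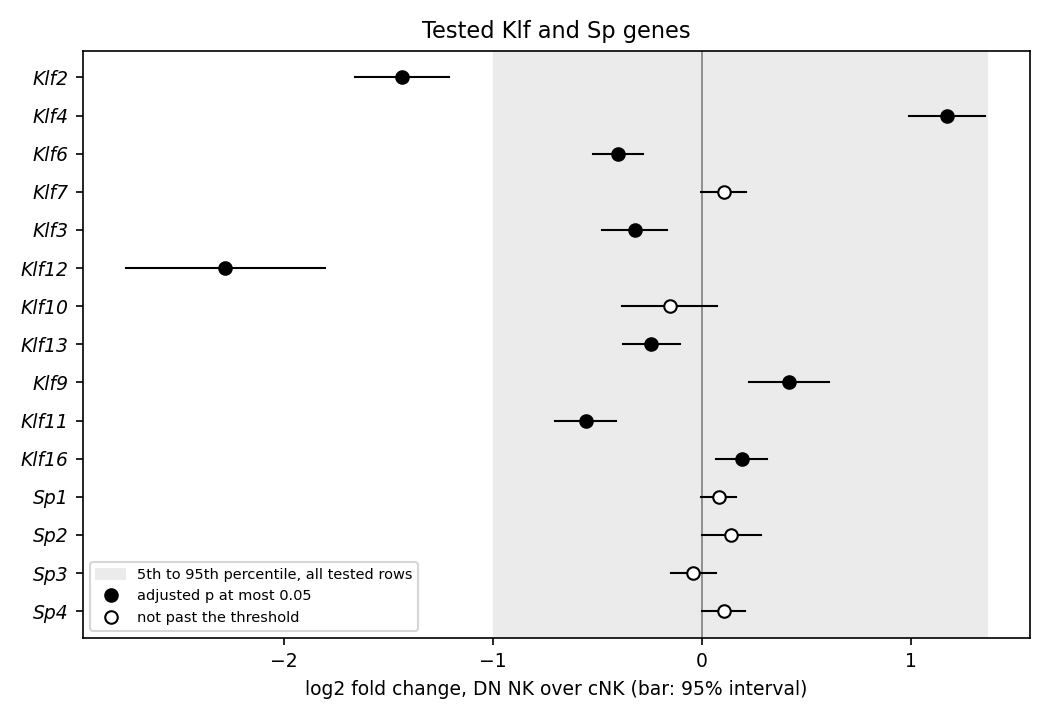
Log2 fold change of DN NK over cNK for the 15 tested Klf and Sp genes, with 95% intervals from edgeR (filled points passed the adjusted threshold, open points did not) and a grey band from the 5th to the 95th percentile of all tested rows (-0.99 to 1.36). Klf2 and Klf12 lie outside the band, and the 4 Sp genes cluster near 0.

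The Sp genes form the sister family with the same kind of zinc fingers. Sp1, Sp2, Sp3 and Sp4 were tested, and none passed, with log2 fold changes of -0.04 to 0.14 and mean levels of 15.3 to 29.0 FPKM. At an unadjusted p below 0.05 edgeR gave 1 of them higher and 0 lower, and DESeq2 and limma called 0 after adjustment. With upper quartile factors 1 was lower, and without cNK replicate 1 there was 1 higher. Their summed level was 84.5 to 87.1 FPKM in cNK and 84.6 to 87.3 FPKM in DN NK. Of the other Klf genes listed, Klf1, Klf5, Klf14 and Klf15 averaged at most 0.455 FPKM in either group. Among them Klf5 was called higher in DN NK when edgeR was run on all rows (log2 fold change 1.36, adjusted p = 0.0347), from 0.174 and 0.455 FPKM in cNK and DN NK. Klf1 is the erythroid member, and the table gives it 0 in every library but DN NK replicate 1.

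In cNK the members ranked Klf6, Klf2, Klf13, Klf10, Klf4, Klf3, Klf7 and Klf12 from highest to lowest FPKM, and the libraries of each neighbouring pair did not overlap. In DN NK Klf4 moved from the fifth place to the second, and Klf2 from the second to the fourth. There Klf13, Klf2 and Klf10 formed a run of neighbours whose libraries overlapped, at 59.3, 57.0 and 48.8 FPKM. The other neighbours in DN NK were apart in all libraries.

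The 8 members summed to 617 ± 21.4 FPKM in cNK and 452 ± 15.2 FPKM in DN NK (SD, n = 3), 94.2% and 92.2% of the summed FPKM of all 16 Klf genes. Within that sum the share of Klf2 was 26.0 ± 1.93% in cNK and 12.6 ± 1.02% in DN NK. Klf4 took 5.60 ± 0.668% in cNK and 16.5 ± 1.40% in DN NK. Klf6 held nearly the same share in both, 41.4 ± 0.896% and 41.1 ± 0.700%, although its level was lower in DN NK. Klf12 made up 0.982 ± 0.0609% and 0.263 ± 0.0710%.

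**Figure D3:**
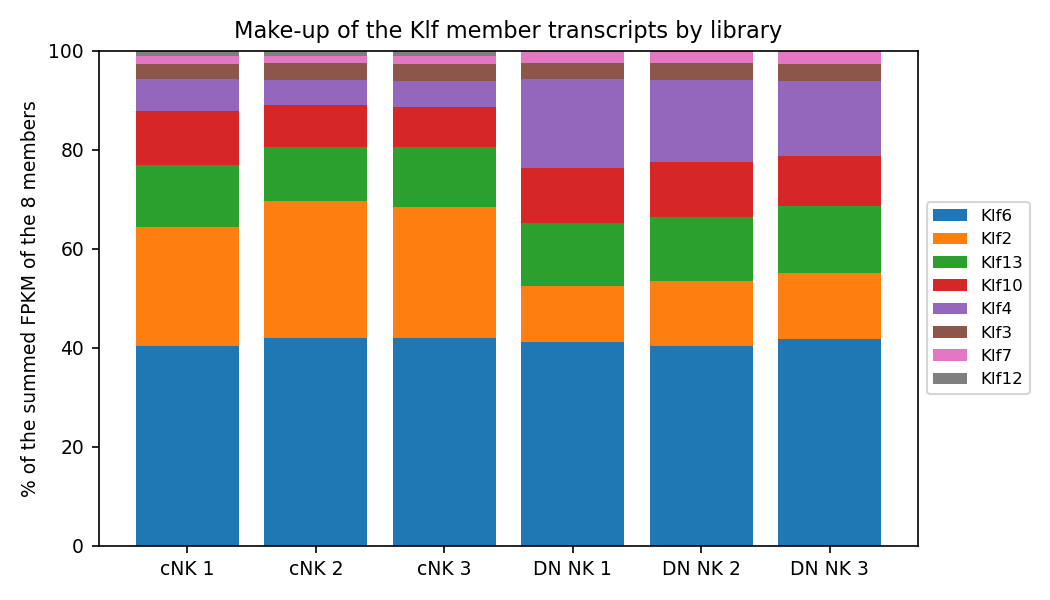
Share of each member in the summed FPKM of the 8 members, 1 stacked bar per library. The Klf2 segment is smaller and the Klf4 segment larger in all 3 DN NK libraries, while the Klf6 segment stays near 41%.

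Genes known to depend on Klf2 in lymphocytes or other cells were split between the groups. Of the 5 reported here, 3 were lower and 2 higher in DN NK, with a median log2 fold change of -0.58. The 3 lower genes were S1pr5, S1pr1 and Itgb7, and 61.7% of all tested rows were called in one direction or the other. S1pr5, the exit receptor typical of NK cells, stood at 39.2, 46.2 and 46.2 FPKM in cNK and at 9.49, 12.4 and 11.0 FPKM in DN NK. The groups were far apart, and S1pr5 fell 3.84-fold (adjusted p = 3.67e-06 by edgeR). S1pr1, the receptor for exit into blood and lymph, was at 18.9 ± 1.58 and 6.67 ± 0.809 FPKM (SD, n = 3), a log2 fold change of -1.44 that equals that of Klf2 to 2 decimals. Itgb7, an integrin chain for homing to the gut, fell by 0.58 on the log2 scale.

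Cdkn1a, which encodes the cell cycle inhibitor p21, rose 2.53-fold, at 20.4, 17.0 and 18.7 FPKM in cNK and 46.9, 46.6 and 42.7 FPKM in DN NK. Ccr7, a chemokine receptor for lymphoid tissue, rose 2.47-fold from 2.98 ± 1.04 to 7.09 ± 2.03 FPKM (SD, n = 3, adjusted p = 0.0150 by edgeR), and without cNK replicate 3 the adjusted p was 0.0538. B and T cells also use Ccr7, and the summed levels of their markers, given above, were likewise higher in all DN NK libraries. Of 5 reported genes known to rise when Klf2 is lost, 2 were tested. On the log2 scale Cxcr3 rose by 0.58, while Myc lay at 0.10 and did not pass. Without cNK replicate 1 or 3 neither was called higher. Cxcr5, Ccr3 and Il4 lay below the filter, with Cxcr5 at 0.661 FPKM in DN NK and 0.0188 FPKM in cNK. When edgeR was run on all rows, which called 31.3% of them, Cxcr5 was called higher (log2 fold change 4.95, adjusted p = 1.56e-07). Ccr3 and Il4 did not pass there.

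**Figure D4:**
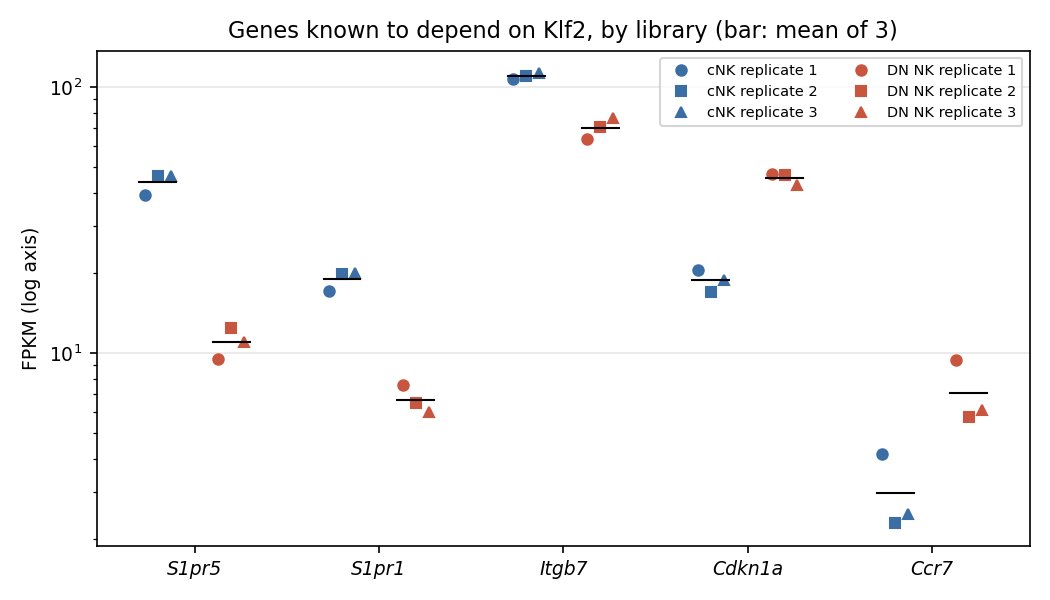
FPKM (log axis) of 5 genes known to depend on Klf2, 1 point per library and a bar at each group mean. S1pr5, S1pr1 and Itgb7 are lower in all 3 DN NK libraries, and Cdkn1a and Ccr7 are higher.

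Of 9 tested regulators that are known to act upstream of Klf2, 6 were higher in DN NK, 0 were lower and 3 did not pass in edgeR's test, with a median log2 fold change of 0.34. Over all tested rows 61.7% were called in either direction and 30.8% as higher. The 6 of 9 called is near the share for either direction, but all 6 were higher, a larger share than the 30.8%. DESeq2 and limma, and edgeR at an unadjusted p below 0.05, also gave 6 higher and 0 lower. The kinase route to Klf2 runs through Map3k2 or Map3k3, Map2k5 and Mapk7 to MEF2 factors. Map3k2 rose most, from 10.5 ± 0.194 to 18.2 ± 0.787 FPKM (log2 fold change 0.86), and Mapk7, the gene of the kinase ERK5, rose by 0.56 from a low level of 2.99 FPKM. Mef2d, the most abundant MEF2 gene here, stood at 55.9, 43.2 and 47.5 FPKM in cNK and at 60.9, 63.5 and 70.1 FPKM in DN NK, a rise of 0.47 on the log2 scale. Mef2a and Mef2c did not pass. Foxo1, which encodes a forkhead activator of Klf2 in lymphocytes, rose 1.26-fold, and Foxo3, at 0.10, did not pass.

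Of 10 corepressor and coactivator genes, 3 were higher, 1 was lower and 6 did not pass. Ctbp2, a corepressor partner of Klf3 and Klf12, fell 2.88-fold from 1.99 ± 0.316 to 0.658 ± 0.0231 FPKM (SD, n = 3) and passed the filter through cNK alone, whereas its far more abundant relative Ctbp1, at 31.9 and 33.3 FPKM, did not pass. Crebbp, an acetyltransferase that several family members recruit, rose 1.54-fold. Hdac1 and Hdac3 rose by 0.15 and 0.27, and only 1 of the 10 was higher with upper quartile factors, without a filter, with limma or without cNK replicate 3. Called genes were thus 4 of 10 here, against 61.7% of all tested rows. Of the 4 ubiquitin ligase genes known to act on KLF proteins, Wwp1, Smurf1 and Itch rose by 0.32, 0.47 and 0.21 on the log2 scale and Fbxw7 did not pass. Over all tested rows 30.8% were called higher in DN NK.

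Several members, above all Klf4, Klf6 and Klf10, belong to the genes that cells switch on within minutes of a stimulus or of handling. Of 17 other immediate early and stress genes, 10 were higher in DN NK, 4 were lower and 3 did not pass, beside 30.8% higher and 30.9% lower over all tested rows. When a mean of 5 FPKM was required, 5 were higher. Their summed level overlapped between the groups, at 2910 to 3490 FPKM in cNK and 3300 to 3570 FPKM in DN NK. Ier3, Hspa1b and Hspa1a rose most, by 2.04, 1.68 and 1.64 on the log2 scale, from levels of 0.865 to 1.21 FPKM in cNK, and Hspa1a passed the filter through DN NK alone. The abundant Fos fell by 0.56 and Dusp1 by 0.59, the same direction as Klf6, while Junb and Atf3 rose by 0.60 and 0.97, the same direction as Klf4. The part of these genes' differences in the Klf values was not tested.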

How the data were processed

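Poly(A) RNA of spleen NK cells was sequenced as paired reads with a TruSeq RNA v2 kit, per the labels' protocols. Strand is not recorded by this kit, and antisense reads count with the sense gene. HISAT, StringTie, edgeR and GRCm38 (mm10) stand in the submitters' processing notes without versions. The deposited table gives the authors' FPKM and a whole-number count per gene and library. The deposited counts are not read counts and were treated as the authors' estimated counts: for single-transcript rows, 88.7 to 90.4% of the values no larger than 30 match FPKM multiplied by length and a library constant, rounded up, and 1 read pair is worth about 3.74. The read pair numbers given are thus approximate.

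Of 27763 rows, the 11690 that reached 1 FPKM in 3 or more libraries were tested with edgeR 4.0.16 in R 4.3.3: TMM factors (0.972 to 1.03), robust dispersion, quasi-likelihood test, 2-sided, group as the only term, Benjamini-Hochberg adjustment over all tested rows, threshold 0.05. The SE is the size of the log2 fold change divided by the square root of F. The fit was tested on simulated data with 1 fixed dispersion and far fewer changed genes than were called here. That run therefore does not speak to scaling or false calls where most rows differ. Levels are the deposited FPKM. Alternatives used limma 3.58.1 on log2(FPKM + 1) or log2(FPKM + 0.1), DESeq2 1.42.0, other scaling and filters, counts per read pair, a replicate block and leaving out each library.

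The members, the lists of other Klf and Sp genes, Klf2 regulators and dependent genes, cofactors, ubiquitin ligases, TGF-beta and immediate early genes and cell markers, and the rule for named genes (the members, tested Klf and Sp genes, any gene of the Klf2 lists, and up to 3 of each other list with the largest change) were chosen with earlier results of these data known. Smad3, Fos, Dusp1, Junb, Atf3, Hdac1, Cd68, Csf1r, Trbc1, Trbc2, Kdr, Vwf, Tek, Cldn5, Pdgfrb, C230096K16Rik, Ctbp1 and Fbxw7 were named after their values were seen. Of the lists of genes tied to Klf2, 2 genes are not reported here and are left out of the counts and medians.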

Additional observations from a re-analysis of the deposited data

How the results depend on the processing

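In all 15 alternatives run 1 member was higher, and 5 were lower in 14 of them. When a mean of 5 FPKM was required, 4 were lower, because Klf12 was then not tested. Klf2, Klf3, Klf4, Klf6 and Klf13 kept their direction and their call throughout, with log2 fold changes of -1.52 to -1.37, -0.41 to -0.27, 1.09 to 1.26, -0.49 to -0.38 and -0.33 to -0.21. Klf12 ranged from -2.48 to -1.70, the smallest value being on the log2(FPKM + 1) scale, which understates changes of low genes. Klf7 (0.02 to 0.12) and Klf10 (-0.24 to -0.04) passed in none. The number of all rows called was 7215 and fell to 4614 under the same requirement, where 6801 rows were tested. Leaving out 1 library at a time gave 6597 to 7044. Same-numbered cNK and DN NK libraries deviated from their group means with low correlations of 0.106, 0.091 and 0.152 over tested rows. Each library nevertheless correlated best with its own number, and the main test took no account of a pairing. With the replicate number as a block, 1 member was higher and 5 were lower, and 7222 rows were called. Upper quartile factors moved the median log2 fold change by -0.09 relative to TMM. Depth limits mainly Klf12, with 38 to 70 read pairs per DN NK library.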

Other observations

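The tested genes whose values followed Klf12 most closely over the 6 libraries, by Pearson's r of log2(FPKM + 1), were Gimap5, a lymphocyte survival GTPase, the proteasome gene Psmc3, the transporter gene Nipal3, the histone gene Hist3h2a and the annexin gene Anxa11, each with r above 0.999. Nipal3 stood at 13.5 FPKM in cNK and 6.39 FPKM in DN NK, and Gimap5 at 42.9 and 30.3 FPKM. As the 6 values fall into 2 separate groups and 569 tested rows have an r over 0.99, these names describe the shared group difference and little else.

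Of the erythroid markers, 4 of 5 tested were higher in DN NK and 1 did not pass, a count that fell to 2 without cNK replicate 3 and to 1 without DN NK replicate 1, with a summed level of 57.8 to 76.1 against 46.4 to 54.1 FPKM. Dendritic cell markers gave 2 higher and 1 lower among 3 tested, with Batf3 and Zbtb46 up by 4.62 and 2.09 on the log2 scale (Batf3 passed the filter through DN NK alone) and Itgax, which NK cells also express, at -0.53. Beside both lists, 30.8% of all tested rows were called higher and 30.9% lower. The 3 listed neutrophil markers summed to at most 0.436 FPKM in any library and 0 in all cNK libraries, and the 4 listed platelet markers to at most 1.78 FPKM.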
